A study of Mus musculus with 193 samples.

Results

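Mouse testis cells that carried green fluorescence from an Id4-eGFP reporter were profiled 1 by 1, giving 193 cells in the series. The comparison described here set 69 of them against 53. The 69 were the cells whose titles label them as Rhox10 knockout (KO) at postnatal day 3 (P3), chosen by the start of their column names, and the 53 were labelled wild type (WT) at postnatal day 7 (P7). The remaining 71 cells were WT at P3 and are given beside the results for orientation only. All 3 groups share the Id4-eGFP reporter and the sort for it. The KO-labelled and the WT P7 cells differ in both genotype and age, so the contributions of Rhox10 and of the 4 days between P3 and P7 cannot be told apart here. Animals, litters and cultures are not named in the labels, so each group counts as 1 sample and no test was made. Titles further divide the cells into lettered sets that the labels do not explain: KO set A with 21 cells, B with 12 and C with 36, and P7 set A with 12 cells and B with 41. The only measure of repeatability is the range of a difference over the 6 pairs formed by 1 KO set and 1 P7 set.

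Spermatogonial stem cells arise in the first days after birth, when prospermatogonia leave their resting state, move to the wall of the seminiferous tubule and begin to divide. ID4, an inhibitor of basic helix-loop-helix transcription factors, is most abundant in the cells with the highest stem cell activity, and its reporter is used to isolate them. RHOX10 is an X-linked homeobox protein of the Rhox cluster that is known for its part in the formation of this stem cell pool. By P7 the Id4-eGFP cells of a normal testis are spermatogonia, and transcription factors such as PLZF, the product of Zbtb16, maintain their undifferentiated state. The comparison therefore sets neonatal Id4-eGFP testis cells labelled as lacking Rhox10 against Id4-eGFP cells of an age further along this path.

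The depth was similar but not equal. Reads on genes per cell ranged from 117385 to 1373776 (median 608841) in the KO-labelled cells and from 226903 to 820131 (median 507865) at P7. The median number of genes above 1 RPM, a read count scaled to the total reads of the cell, was 6991 and 6530. All 69 and all 53 cells had Ddx4 and Dazl, which encode germ cell RNA-binding proteins, above 1 RPM. Levels below are means over the cells of a set of log2(RPM + 1). A group's level is the unweighted mean of its sets, and every difference is KO-labelled P3 minus WT P7 on that scale, on which the change of weakly expressed genes is understated. Each cell was also rescaled to 2497 genes that were above 1 RPM in at least 90% of the cells of both groups. These genes summed to a mean of 76430 RPM in KO set A, 94765 in B and 97184 in C. The P7 sets had 102649 and 103327 RPM. Levels in KO set A were therefore raised most by the rescaling. Rescaling moved the median difference, over genes whose mean level was 2 or more, from -0.12 to 0.05, and rescaled values are given where they matter.

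KO set A stood apart from KO sets B and C. Zbtb16 was above 1 RPM in 5 of its 21 cells, against 12 of 12 cells in KO set B, 36 of 36 in KO set C and 52 of 53 at P7. Neither Zbtb16 nor Gfra1, the GDNF co-receptor of stem cells, was above 1 RPM in 12 of the 21 cells, and no cell of the other 4 sets lacked both. Clu and Sox9, markers of Sertoli cells, the somatic nurse cells of the tubule, were above 1 RPM together in 8 of the 21 cells, 7 of them without Zbtb16. The corresponding counts were 0 in KO set B, 3 in KO set C and 0 at P7. In the WT P3 sets both genes were above 1 RPM in 5 of 16 and 6 of 55 cells, all of them with Zbtb16. The 10 Sertoli markers summed to between 16.4 and 2399 RPM per cell (median 85.8) in KO set A. Their sum ran from 0.975 to 63.5 RPM in KO set B, from 0 to 68.6 in KO set C, from 17.6 to 107 in P7 set A and from 0 to 164 in P7 set B. In the WT P3 sets it ran from 13.3 to 163 RPM (median 59.7) and from 4.29 to 793 RPM (median 28.9). Ctsl, which was detected in cells of every set, made up most of that sum at P7, where Amh, Inhbb, Fshr and Dhh were listed at 0 in all cells. In KO set A, all 10 markers were above 1 RPM in at least 1 cell, although Amh was above 1 RPM in only 2 cells and Fshr in 1. The germ cell markers summed to as little as 15.8 RPM in 1 cell of that set, and to at least 668 RPM in every P7 cell. In that cell of KO set A the Sertoli markers summed to 2399 RPM, and the cell was kept. Markers of myoid or stromal cells had median sums of 15.3 RPM in KO set A, 2.78 in B, 2.97 in C, 0.28 in P7 set A and 1.68 in P7 set B. Markers of endothelial cells, which line blood vessels, were higher in every KO set, with median sums of 21.97, 12.7 and 4.89 RPM against 0.15 and 0.72 at P7, and 8.85 and 5.23 in the WT P3 sets. Of these 7 markers, Flt1, a VEGF receptor gene, was above 1 RPM in 11 of 21, 10 of 12 and 21 of 36 KO-labelled cells and in 2 of 12 and 14 of 41 P7 cells, while Esam was above 1 RPM in none of these cells. Values without KO set A are given below for many lists and genes, and what part these markers have in any difference was not tested.

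Rhox10, the gene named by the KO label, was not lower in every KO set. The gene lies at chrX:38066475-38071691 on the plus strand (GRCm38, GENCODE release M21). Its level was 2.48 in KO set A, 2.62 in KO set B and 0.83 in KO set C, against 1.53 in P7 set A and 1.52 in P7 set B. The WT P3 sets had 1.78 and 1.49. Rhox10 RNA was above 1 RPM in 15 of 21, 9 of 12 and 10 of 36 KO-labelled cells, and in 26 of 53 P7 cells. The difference of 0.45 ran from -0.70 to 1.10 over the pairs, so KO set C was below and KO sets A and B were above both P7 sets. Which part of the gene was removed is not given in the sources used here, and reads outside it would still be counted, so these values neither check nor contradict the label.

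Id4 itself did not separate the groups. Its median was 2.65 RPM in the KO-labelled cells (0 to 51.7) and 4.45 RPM at P7 (0 to 66.6), and 68.1% and 77.4% of cells were above 1 RPM. The difference was -0.36 over all sets (-1.45 to 0.42) and 0.04 without KO set A. Id4 was higher in the WT P3 sets, at 3.75 and 3.46. The eGFP that selected the cells was therefore accompanied by Id4 RNA above 1 RPM in most, but not all, cells of both groups. In KO set A, however, most cells were not above 1 RPM. Kit, the receptor gene of differentiating spermatogonia, had a difference of 0.29 (-0.65 to 1.45) and was split between the P7 sets, at 0.70 in A and 2.10 in B.

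Immediate early genes led by Fos, genes of the meiotic chromosome axis and several targets of p53 were higher in the KO-labelled P3 cells than in the WT P7 cells. Zbtb16 and other progenitor genes, Brwd3, Arrdc3, Sfrp2 and many genes of respiration were lower. Across the 5040 genes whose mean level was 2 or more, 216 genes (4.29%) were higher in the KO-labelled cells by 1 or more and on the same side in all 6 pairs, and 309 (6.13%) were lower. The balance depended on the scale. After rescaling, 313 of 5027 genes (6.23%) were higher and 181 (3.6%) were lower. Of the genes counted on the RPM scale, 215 of the 216 higher and 181 of the 309 lower genes were counted again after rescaling. Without KO set A, the counts on the RPM scale were 339 higher and 178 lower. Only the pairs of the remaining sets then had to be on the same side, a looser condition than all 6. Single pairs of sets differed widely: KO set C against P7 set B had 157 genes higher and 255 lower by 1 or more, while KO set A against P7 set B had 258 higher and 1543 lower. At a lower bar, for the 9902 genes whose mean level was 0.5 or more, 16.8% were higher and 17.3% lower in all 6 pairs at any size. The rescaled values were 22.9% and 13.1%, and the gene lists below are read against these shares.

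**Figure D1:**
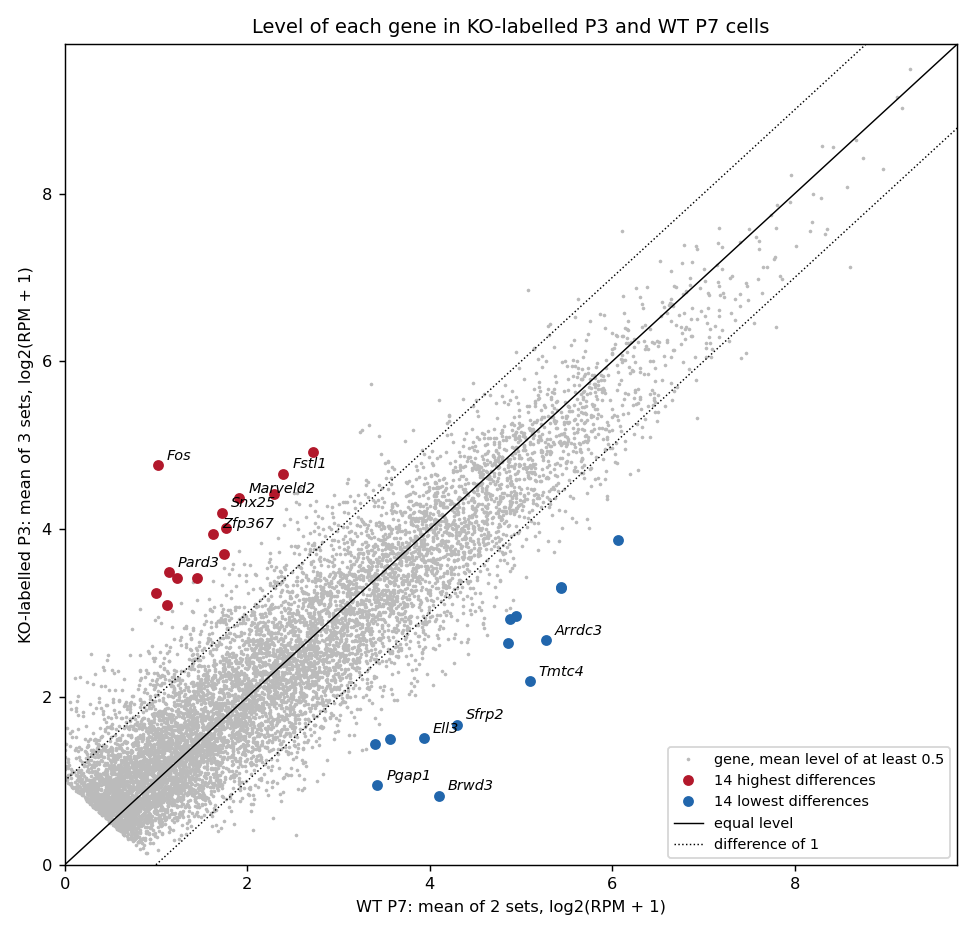
Level of each gene in KO-labelled P3 cells (vertical axis, mean of 3 sets) against WT P7 cells (horizontal axis, mean of 2 sets), both in log2(RPM + 1), for genes whose mean level was 0.5 or more. Red points are the genes with the 14 highest differences and blue points those with the 14 lowest; Fos, at 3.74, and Brwd3, at -3.28, lie farthest from the line of equal level.

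The highest difference belonged to Fos, an immediate early gene whose protein joins JUN in the AP-1 transcription factor. Fos (chr12:85473890-85477273, plus strand) had medians of 25.9, 35.1 and 52.1 RPM in KO sets A, B and C, with extremes of 0.131 and 196 RPM over all 69 cells. In P7 set A the median was 0 RPM and the highest cell had 26.7, and in P7 set B the median was 0.627 RPM and the highest cell had 29.6. The medians of KO sets B and C thus exceeded the highest P7 cell and that of KO set A did not. Many KO-labelled cells of all 3 sets lay within the P7 range. Fos was above 1 RPM in 92.8% of KO-labelled cells and 39.6% of P7 cells. The difference was 3.74 (2.99 to 4.59), 3.88 after rescaling and 3.87 without KO set A. The WT P3 sets, at 4.23 and 4.48, were close to the KO-labelled sets, at 4.50, 4.67 and 5.12.

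**Figure D2:**
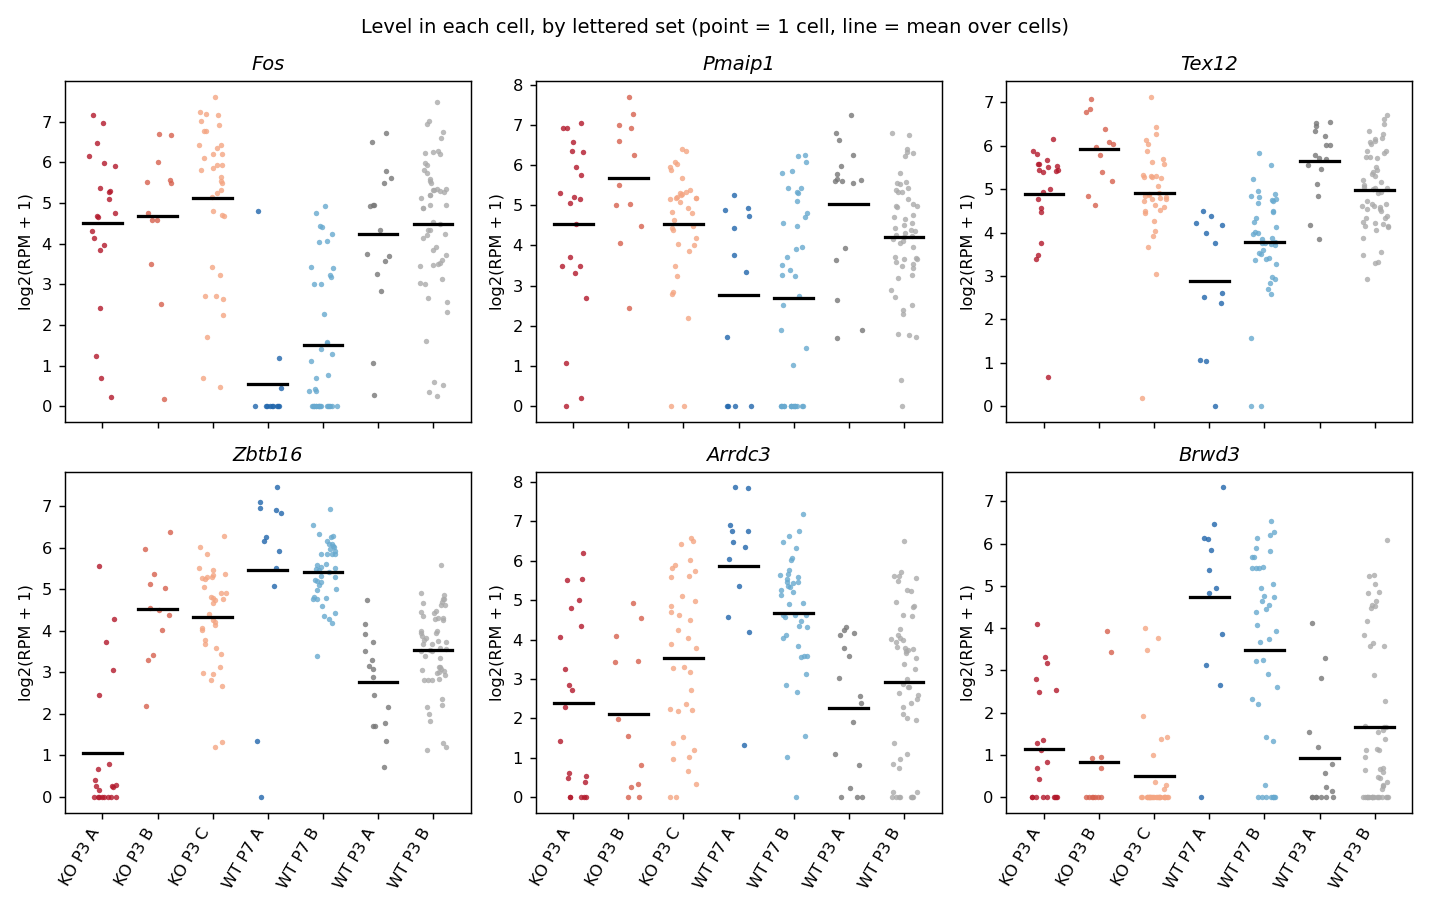
Level of 6 genes in each cell, in log2(RPM + 1), by lettered set; each point is 1 cell and each line the mean over the cells of a set. Fos, Pmaip1 and Tex12 were higher in the 3 KO sets than in both P7 sets, and Zbtb16, Arrdc3 and Brwd3 were lower, while single cells overlapped for all 6 genes.

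The immediate early genes, which are switched on within minutes of a stimulus and without new protein synthesis, were measured for 20 of 30 members. Of these, 10 were higher in all 6 pairs and 0 were lower, and the list median was 0.43 (0.35 to 1.04 over the pairs; 0.54 after rescaling), or 0.25 without KO set B. The mean level of the list was 2.22, 2.63 and 2.26 in the KO sets and 1.47 and 1.65 at P7. The WT P3 sets had 2.24 and 2.13. Sgk1, a serum- and glucocorticoid-induced kinase, had levels of 3.87, 4.93 and 3.25 in the KO sets against 1.19 and 2.33 at P7. Klf4, a Krüppel-like factor also used in reprogramming, had 4.89, 3.99 and 4.0 against 2.79 and 2.58. Here and for the lists below, members beyond the 2 highest and 2 lowest of a list were chosen after their values were seen. Fosb, a close relative of Fos, was above 1 RPM in 69.6% of KO-labelled cells and 3.8% of P7 cells, and Atf3 in 43.5% and 15.1%. Jun, the partner of Fos, had a difference of 0.97 (0.70 to 1.29) and Dusp1, a phosphatase that turns off MAP kinases, 1.07 (0.33 to 2.02; 0.70 without KO set C). Btg2 and Ier3, the lowest members, differed by -0.04 and -0.03, and both turned above 0 after rescaling, at 0.13 and 0.08. Egr2 had 2.91 in KO set A, 4.33 in B and 4.28 in C, on either side of the P7 sets.

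The promoters of 3 genes are shown because Fos has the highest difference, Dusp1 holds a full cAMP response element and Anxa2, another of the 14 highest, holds an AP-1 site. Each window covers 250 bases before to 50 bases after the annotated start (RefSeq, GRCm38.p6), 5′ to 3′ on the strand of the gene, and capitals mark the motif.
Fos, chr12:85473640-85473939, plus strand: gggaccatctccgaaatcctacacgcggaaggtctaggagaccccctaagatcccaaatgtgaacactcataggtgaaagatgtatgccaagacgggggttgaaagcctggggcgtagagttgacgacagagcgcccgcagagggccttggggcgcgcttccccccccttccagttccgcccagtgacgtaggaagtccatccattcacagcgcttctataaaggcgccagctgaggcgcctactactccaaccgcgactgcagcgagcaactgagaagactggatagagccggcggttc
Dusp1, chr17:26508423-26508722, minus strand: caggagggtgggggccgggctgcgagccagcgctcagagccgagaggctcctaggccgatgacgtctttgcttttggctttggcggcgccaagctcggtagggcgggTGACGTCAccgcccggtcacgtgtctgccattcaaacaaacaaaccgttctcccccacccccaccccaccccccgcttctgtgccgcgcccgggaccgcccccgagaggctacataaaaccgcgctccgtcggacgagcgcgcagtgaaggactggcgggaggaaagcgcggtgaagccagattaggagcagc
Anxa2, chr9:69453433-69453732, plus strand: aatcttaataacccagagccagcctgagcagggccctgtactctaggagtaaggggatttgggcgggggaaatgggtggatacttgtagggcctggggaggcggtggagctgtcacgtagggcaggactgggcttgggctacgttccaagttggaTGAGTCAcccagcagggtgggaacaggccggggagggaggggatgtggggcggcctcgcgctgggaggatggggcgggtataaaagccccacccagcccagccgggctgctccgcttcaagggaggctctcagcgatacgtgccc
The search used TGACGTCA for the cAMP response element, TGANTCA for AP-1 and the CArG box by name, on both strands. No other match to the 3 motifs was found in these windows, and the Fos window held none of the 3. Partial forms of a motif and sites outside the windows were not searched, so these may be present near Fos or any other gene. Over all 32851 promoter windows, 1.79% held the cAMP response element and 7.81% held the AP-1 site. The CArG box was in 1.63% of them. None of the 3 motifs contains another. Windows were found for 18 of the 20 measured immediate early genes. Of these 30 windows, 2 held the response element, in Btg2 and Dusp1, and 1 held AP-1. The CArG box was in 5, of which 4 were alternative starts of Egr2. The 24 windows found for 12 of the 14 highest genes included 1 with the response element, in Zfp367, and 1 with AP-1, in Anxa2. The 18 windows found for 12 of the 14 lowest genes held none of the 3. A match is a run of letters in a window and was not tested as a binding site.

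The other 13 genes at the upper end lay between 1.97 and 2.48. Snx25, which encodes a sorting nexin, had KO levels of 4.30, 4.85 and 3.44 against 1.81 and 1.63 at P7 (difference 2.48, 1.63 to 3.22). Marveld2, a protein of tricellular tight junctions, had 3.04, 5.65 and 4.43 against 1.37 and 2.46 (2.46, 0.59 to 4.28). Pard3, a scaffold of cell polarity, had 3.47, 3.95 and 3.04 against 0.94 and 1.33 (2.35, 1.70 to 3.01). All 3 genes were higher in every KO set than in either P7 set. The WT P3 sets had 3.49 and 2.60 for Snx25, and 2.95 and 2.64 for Marveld2.

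Several genes at this end were highest in KO set A. Fstl1, a secreted follistatin-like protein, had 5.65 in KO set A, 4.80 in B and 3.54 in C against 2.58 and 2.21 at P7. Its difference of 2.27 was 1.77 without KO set A. Slc38a4, an amino acid transporter, had 5.02, 2.63 and 2.07 against 1.03 and 0.98, and its difference of 2.23 became 1.35 without KO set A. Bbx, an HMG-box protein, had 4.37, 2.64 and 2.28 against 1.22 and 1.02, with a difference of 1.98, or 1.34 without KO set A. Anxa2, a calcium- and membrane-binding annexin, was the reverse, with 1.57 in KO set A and 4.58 and 4.12 in B and C, against 0.97 and 1.5. Its difference of 2.19 therefore ran from 0.07 to 3.61, and was 3.12 without KO set A. The last of the 14, Ccng1, stood at 1.97, and the next gene outside was Mia3 at 1.96.

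Targets of p53 and members of the BCL2 family lay in both directions. Pmaip1, which encodes the BH3-only protein NOXA, had medians of 34.7, 59.4 and 31.1 RPM in KO sets A, B and C and of 10.8 and 8.43 RPM in the P7 sets. The difference was 2.20 (1.77 to 3.01), and 94.2% against 64.2% of cells were above 1 RPM. Ccng1, which encodes cyclin G1, and Mdm2, which encodes the ubiquitin ligase of p53, had differences of 1.97 (0.73 to 3.18) and 1.09 (0.04 to 2.08). Without P7 set A, the value for Ccng1 was 1.19. Trp53, the p53 gene itself, was lower, with levels of 2.08, 2.93 and 3.51 against 4.19 and 4.03 (-1.27, -2.11 to -0.51), as was Bax (-0.47, -0.68 to -0.06). Of 15 measured members, 5 were higher and 2 lower in all pairs, and the median was 0.19, or 0.04 without KO set B.

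Genes of the meiotic chromosome axis and of recombination were mostly higher, with 17 of 20 measured members above 0. Of all 9902 genes whose mean level was 0.5 or more, 4955 were above 0. Of these 20, 7 were higher in all pairs and 1 was lower, and the median was 0.45 (0.17 to 1.13; 0.62 after rescaling), or 0.73 without KO set A and 0.25 without P7 set A. Hormad1, a HORMA-domain protein of the axis, had 4.05, 4.99 and 4.23 in the KO sets against 1.66 and 2.93 at P7, and 4.01 and 4.10 in the WT P3 sets. Tex12, a central element protein of the synaptonemal complex, had 4.88, 5.92 and 4.91 against 2.89 and 3.78. Syce3 and Sycp3, also of that complex, differed by 1.23 (0.90 to 1.60) and 1.12 (0.89 to 1.45). Spo11, whose protein makes the breaks that start recombination, was above 1 RPM in 42% of KO-labelled and 9.4% of P7 cells. Trip13, the ATPase that remodels HORMA-domain proteins, was lower at 1.17, 3.12 and 4.27 against 4.32 and 4.49 (-1.55, -3.32 to -0.05). Its level was lowest in KO set A, and the difference was -0.71 without that set.

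The lowest difference was that of Brwd3, an X-linked bromodomain and WD-repeat protein. Brwd3 (chrX:108737016-108834372, minus strand) had medians of 0.619, 0 and 0 RPM in KO sets A, B and C, where no cell exceeded 16.003 RPM. The P7 sets had medians of 35.3 and 15.8 RPM and reached 160 and 92.3. It was above 1 RPM in 26.1% of KO-labelled cells and 81.1% of P7 cells, and the difference was -3.28 (-4.23 to -2.33). The cells overlapped, since 10 of 53 P7 cells were not above 1 RPM. The WT P3 sets, at 0.92 and 1.67, were also below both P7 sets. Tmtc4, a membrane protein of the endoplasmic reticulum, had 1.77, 2.23 and 2.57 against 5.61 and 4.58 (-2.90, -3.84 to -2.01).

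Zbtb16 was lower in all 3 KO sets, though by very different amounts. The gene, at chr9:48654297-48836222 on the minus strand, had medians of 0.193 RPM in KO set A, 22.2 in B and 25.1 in C, against 72.7 in P7 set A and 43.7 in P7 set B. KO set A ran from 0 to 46.3 RPM, and the cells of KO sets B and C, from 1.31 to 81.6 RPM, overlapped those of P7. The difference of -2.13 (-4.40 to -0.90) became -1.01 without KO set A and -0.90 when those sets were also rescaled. The WT P3 sets, at 2.77 and 3.54, were below KO sets B and C, at 4.52 and 4.34, and above KO set A, at 1.06.

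Progenitor genes, here a list of genes of undifferentiated spermatogonia that are not confined to cells leaving the stem cell state, had the lowest median. Of 14 measured members, 0 were higher and 8 were lower in all pairs on the RPM scale, and 1 and 8 after rescaling, with medians of -0.55 (-1.09 to -0.21) and -0.34. Without KO set A the median was -0.31, and -0.24 when also rescaled. The mean level of the list was 2.73, 3.58 and 3.29 in the KO sets and 3.96 and 3.78 at P7. The WT P3 sets had 3.12 and 3.24. Bnc2, a zinc finger protein of germ cells, had 3.24, 3.20 and 2.33 against 5.33 and 4.43. Nanos3, an RNA-binding protein needed for germ cell survival, was above 1 RPM in 21.7% of KO-labelled cells and 64.2% of P7 cells (-1.15, -1.76 to -0.23). Sohlh1, a helix-loop-helix factor of early differentiation, had 2.49, 2.36 and 2.41 against 3.12 and 3.72. Lin28a differed by -0.73 (-1.06 to -0.19) and its relative Lin28b by -0.97 (-1.07 to -0.84), both encoding RNA-binding proteins that block let-7 maturation. Sall4, a zinc finger partner of PLZF, lay on both sides, with 6.48, 7.72 and 7.12 against 7.17 and 6.84. Cdh1, which encodes E-cadherin, was the highest member at 0.94 (-0.01 to 1.68).

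The stem cell genes gave no direction. Of 13 measured members, 0 were higher and 2, Zbtb16 and Bcl6b, were lower in all pairs, and the median of -0.26 became 0.37 without KO set A. Gfra1 had 1.98 in KO set A but 4.95 and 4.40 in B and C, on both sides of the P7 levels of 4.74 and 4.22. Its difference of -0.71 was 0.19 without KO set A. Ret, the signalling partner of GFRA1, and Etv5, a target of GDNF, followed the same order, with 1.92 and 2.42 in KO set A and at least 4.92 and 4.48 in B and C. Bcl6b, another target of GDNF, was lower in all 3 KO sets, at 0.30, 0.79 and 2.01 against 2.48 and 2.3. Spry4, a feedback inhibitor of FGF signalling, had 1.67, 3.83 and 3.72 against 1.47 and 2.29, a difference of 1.19 that was 1.9 without KO set A. Of the kinases downstream, Braf was higher at 1.23 (0.58 to 1.79) and Map2k1 and Map2k2 were lower at -0.92 (-1.86 to -0.07) and -0.89 (-1.52 to -0.35). The Map2k1 value was -0.32 without P7 set B and -1.52 without P7 set A. The 23 measured GDNF and FGF genes had 6 members higher and 3 lower in all pairs, and the median was 0.30, although pair medians lay on both sides of 0, from -0.59 to 0.41. It was 0.12 without P7 set A or without KO set C.

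**Figure D3:**
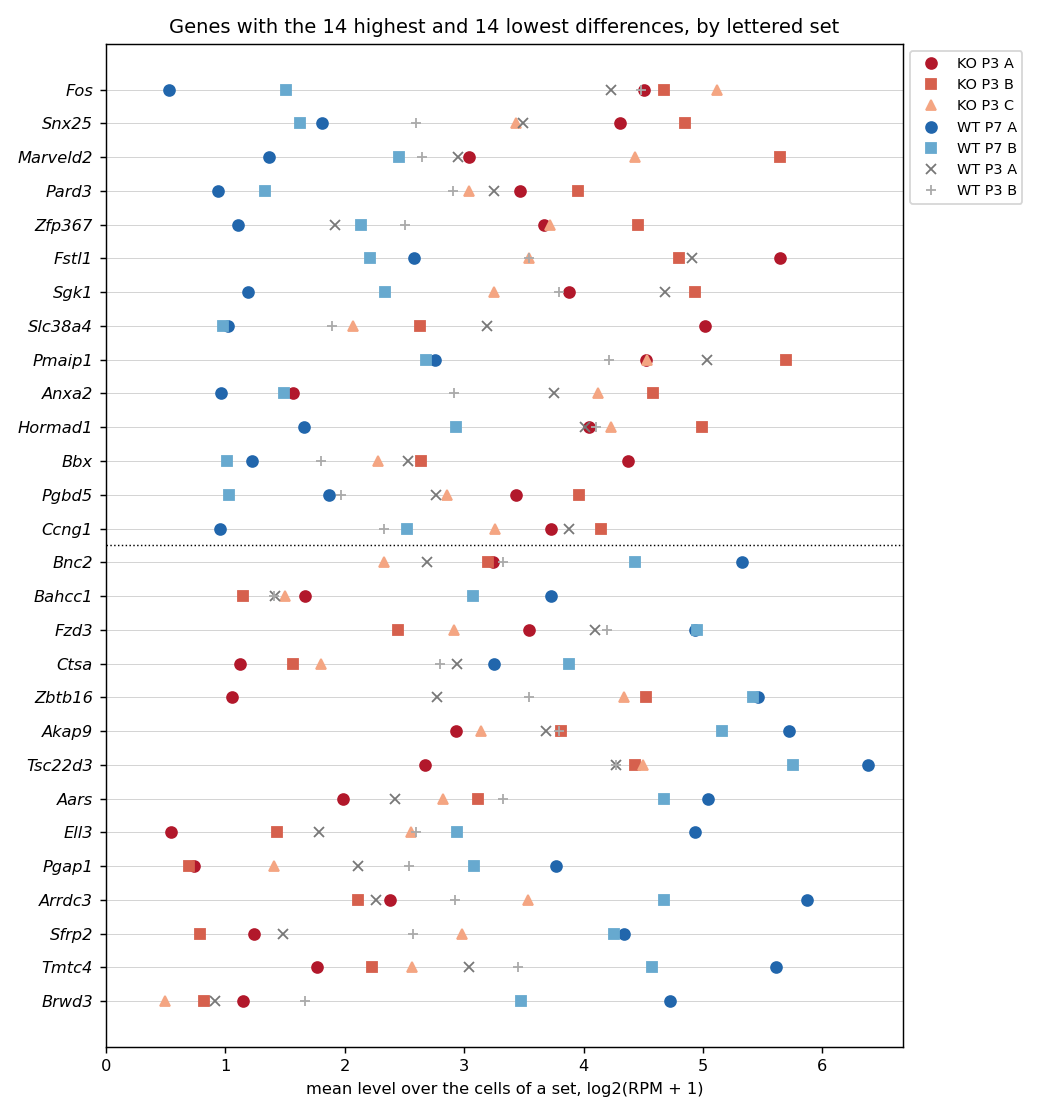
Mean level over the cells of each lettered set, in log2(RPM + 1), for the genes with the 14 highest (above the dotted line) and 14 lowest differences; red marks are KO sets, blue marks P7 sets and grey marks WT P3 sets. The selection placed all red marks right of the blue marks for the upper genes and left of them for the lower genes. The narrowest gap was at Anxa2 (0.07).

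Among the other genes at the lower end were members of the WNT pathway and of the alpha-arrestin family. Sfrp2, a secreted WNT antagonist, had 1.24, 0.79 and 2.98 against 4.34 and 4.25 (-2.62, -3.54 to -1.27), and Fzd3, a WNT receptor, had 3.55, 2.45 and 2.91 against 4.93 and 4.95. Ctnnb1, which encodes beta-catenin, and Tcf7l2, its DNA-binding partner, were higher at 1.12 (0.69 to 1.61) and 1.21 (0.72 to 2.00). The 16 WNT genes had 5 members higher and 3 lower in all pairs, and the median was 0.12 (0.33 after rescaling, and 0.20 without KO set A). Arrdc3, an alpha-arrestin, had medians of 3.90, 2.45 and 13.3 RPM in the KO sets and of 84.4 and 29.6 RPM at P7 (-2.59, -3.75 to -1.13). Txnip, the thioredoxin-binding member of that family, differed by -0.61 (-1.13 to -0.13; -0.40 without P7 set B), while Arrdc4 lay on both sides. Tsc22d3, a glucocorticoid-induced leucine zipper gene, had 2.67, 4.43 and 4.50 against 6.38 and 5.76, where Sgk1, also induced by glucocorticoids, was higher. Pgap1, Ell3, Akap9, Ctsa and Bahcc1 completed the 14, between -2.48 and -1.96. Ell3, an elongation factor for RNA polymerase II, differed by -2.42 over all sets and by -1.43 without P7 set A, which had the highest level, 4.93. Bnc2 at -1.95 was the last of them and Erap1 at -1.93 the next gene outside.

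Genes of oxidative phosphorylation were mostly lower, and other lists of metabolism and growth were divided. In 23 of 27 measured genes of oxidative phosphorylation the difference was below 0, and in 20 after rescaling. Over all genes whose mean level was 0.5 or more, 4947 of 9902 were below 0, and 4074 of 9929 after rescaling. Of the 27 genes, 0 were higher and 9 lower in all pairs, and the median was -0.43 (-1.01 to 0.06; -0.22 after rescaling). Without KO set A it was -0.21, and -0.10 when also rescaled. The mean level of the list was 4.15, 4.70 and 4.86 in the KO sets and 4.87 and 5.11 at P7. The WT P3 sets had 4.37 and 4.40. Ndufv1, a subunit of complex I, had 4.68, 5.29 and 5.19 against 6.20 and 6.07, and Atp5c1, a subunit of ATP synthase, had 4.46, 5.90 and 6.58 against 6.68 and 6.67. The Atp5c1 difference of -1.03 was -0.43 without KO set A. Of 15 glycolysis genes, 3 were higher and 8 lower in all pairs, and the median was -0.22 (-0.13 after rescaling, and -0.46 without KO set C). Gpi1 and Gapdh were the lowest, at -1.18 and -1.08, and Ldha, which makes lactate from pyruvate, was the highest at 1.31 (0.55 to 1.86). Gapdh and Ldha have many pseudogene copies, so their values are uncertain where reads with several alignments were dropped. Aars, the alanyl-tRNA synthetase, had 1.99, 3.12 and 2.83 against 5.04 and 4.67. Its list of tRNA synthetases and ATF4 targets had 1 member higher and 7 lower in all pairs, and its median turned from -0.16 to 0.04 with rescaling. The 18 measured genes of the AKT and mTOR pathway had 4 members higher and 5 lower in all pairs, and the median was 0.13 (0.21 after rescaling, and -0.14 without P7 set A). In that pathway the partners of the TSC complex differed in sign, with Tsc1 at 1.24 (0.81 to 1.54) and Tsc2 at -1.29 (-1.52 to -1.06). Foxo1 was lower at -0.65 (-1.46 to -0.16), or -0.27 without KO set A.

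Cholesterol genes were divided as well. Hmgcs1, an early enzyme of sterol synthesis, had 6.47, 7.25 and 6.84 against 4.84 and 5.31 (1.78, 1.16 to 2.41), and Sc5d, a late one, was higher at 1.09, or 0.72 without KO set B. Mvd, an enzyme between them, had 0.35, 1.02 and 1.39 against 2.96 and 2.28, and Abca1, the exporter of cholesterol, had 2.46, 2.23 and 3.54 against 5.05 and 4.21. Of 19 measured members, 2 were higher and 5 lower in all pairs, and the median was -0.29 (-0.10 after rescaling, and also without KO set A).

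Regulators of chromatin and of pluripotency showed the following values. Dnmt3a, a de novo DNA methyltransferase, was higher at 5.19, 5.27 and 4.96 against 4.76 and 3.72, and its relative Dnmt3b was lower at 1.39, 1.40 and 2.37 against 2.63 and 2.73. The Dnmt3a difference of 0.90 was 0.38 without P7 set B and 1.42 without P7 set A. Tet1 and Tet2, which oxidise methylcytosine, and Dnmt3l, the cofactor of DNMT3A in prospermatogonia, were higher in all pairs but had their highest levels in KO set A, at 2.10, 2.72 and 3.01. In KO set C they were at 0.51, 0.52 and 0.50, against 0.35 or less in the P7 sets. Without KO set A the Dnmt3l difference of 1.13 was 0.30 and that of Tet2, 1.23, was 0.62. The 10 measured genes of DNA methylation had 5 members higher and 1 lower in all pairs (median 0.43, or 0.74 without P7 set B). Suv39h1, a histone H3K9 methyltransferase, was lower at -1.47 (-2.41 to -0.89), and Kdm3a, an H3K9 demethylase, was higher at 1.14 (0.00 to 1.98). Of 17 genes of H3K9 methylation, all 6 pairs put 1 higher and 4 lower, but 3 and 1 after rescaling. Dppa4, a chromatin protein of pluripotent cells, had 4.18, 4.6 and 3.58 against 2.25 and 2.70. Of 9 measured pluripotency genes, 4 were higher and 1 lower in all pairs, and the median was 0.39, or 0.20 without KO set A.

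Imprinted genes had 6 of 15 measured members higher and 1 lower in all pairs, and the median was 0.52, or 0.27 without KO set A. Mest, a paternally expressed gene, had 3.37, 3.39 and 3.94 against 1.85 and 2.22, and Igf2r, a maternally expressed receptor, had 4.43, 4.62 and 3.74 against 2.94 and 2.92. Grb10 had 3.31 in KO set A and 1.54 and 0.75 in B and C, against 0.03 and 0.22 (1.74, or 1.02 without KO set A). The other measured Rhox genes were Rhox5 at 1.39 (1.02 to 1.93), Rhox9 at 0.72 (0.12 to 1.15) and Rhox13 at 0.33 (-0.09 to 0.97), the last being known as a target of retinoic acid in spermatogonia. Clock genes had 5 of 13 members higher and 1 lower in all pairs: Bhlhe40, a repressor of the clock, was above 1 RPM in 52.2% against 13.2% of cells, Cry1 differed by 1.11 (0.64 to 1.68) and Per1 by -0.81 (-1.17 to -0.51). S100a6, a calcium-binding partner of annexins, was above 1 RPM in 71.0% of KO-labelled cells and 11.3% of P7 cells, and Lmna, which encodes lamins A and C, in 81.2% and 43.4%. Of 13 measured lamin, annexin and S100 genes, 6 were higher and 1 was lower in all pairs (median 0.50, or 0.32 without KO set B).

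Germ cell RNA regulators had no common direction on the RPM scale. Of 18 measured RNA-binding genes, 1 was higher and 4 lower in all pairs, and the median turned from -0.03 to 0.18 with rescaling. Dnd1, the partner of NANOS proteins, had 1.84, 2.08 and 2.65 against 4.06 and 3.66 (-1.67, -2.22 to -1.01). Dazl and Ddx4 differed by 0.22 (-0.28 to 0.65) and 0.00 (-1.0 to 0.54). The 18 piRNA genes had 3 members higher and 3 lower in all pairs, among them Piwil4, the nuclear PIWI protein of prospermatogonia, at 0.97 (0.39 to 1.90), and Pnldc1, a trimming enzyme, at -0.91 (-1.63 to -0.07). These were 0.56 without KO set B and -0.60 without KO set A. The piRNA median turned from -0.03 to 0.18 with rescaling too. After rescaling, 7 piRNA genes were higher and 1 was lower in all pairs, and 4 and 4 of the RNA-binding genes. Without KO set A, the medians were 0.12 for the RNA-binding genes and 0.21 for the piRNA genes. The 10 measured genes of differentiation had 1 member higher and 3 lower in all pairs, with a median that turned from -0.04 to 0.09 with rescaling and to 0.42 without KO set A. Uchl1, a ubiquitin hydrolase of spermatogonia, was lower at 4.66, 4.31 and 4.58 against 5.61 and 5.93.

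**Figure D4:**
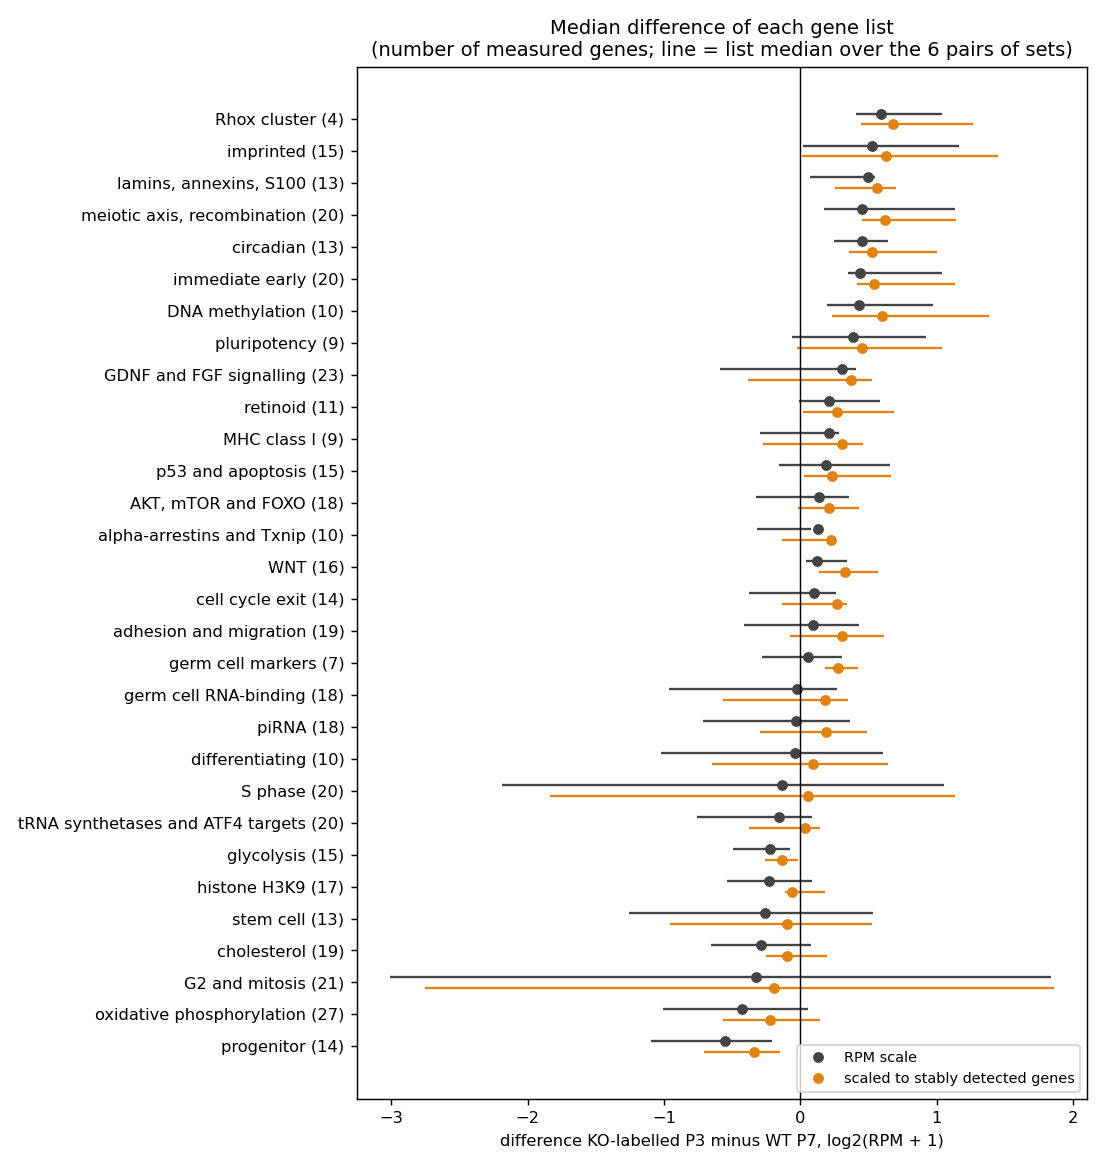
Median difference of each gene list with at least 4 measured genes, KO-labelled P3 minus WT P7 in log2(RPM + 1), on the RPM scale (grey) and after rescaling (orange); lines span the list medians of the 6 pairs of sets and numbers in brackets are measured genes. The progenitor list lies lowest, at -0.55, and the Rhox cluster, 4 genes with Rhox10 among them, lies highest, at 0.59. The G2 and mitosis list has the widest line.

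Cell cycle genes separated sets rather than groups. The mean level of 21 genes of G2 and mitosis was 1.66 in KO set A, 3.85 in B and 4.40 in C, against 2.67 in P7 set A and 4.96 in P7 set B. The pair medians of this list ran from -3.01 to 1.84, and its overall median of -0.32 became 0.45 without KO set A and -1.81 without P7 set A. No member was on the same side in all 6 pairs. Cenpf, a kinetochore protein, had 1.98, 5.44 and 6.69 against 5.35 and 7.22, and Cdk1, the mitotic kinase, had 1.44, 3.79 and 3.98 against 1.59 and 4.18. The Cenpf difference of -1.58 was -0.22 without KO set A. The 20 genes of S phase had 2.62, 4.78 and 4.82 against 3.72 and 4.70. Ccne2, which encodes cyclin E2, was the 1 member higher in all pairs (0.97, 0.35 to 1.47), and Rpa2, a single-strand DNA-binding subunit, the 1 lower (-0.91, -2.50 to -0.06). Without P7 set A the Ccne2 value was 0.60, and without KO set A that of Rpa2 was -0.14. The S phase median of -0.13 was 0.56 without KO set A. Of 14 genes of cell cycle exit, 2 were higher and 1 was lower in all pairs, with Tob1, an antiproliferative protein, at 1.20 (0.54 to 2.05) and Cdk4, a G1 kinase, at -1.01 (-1.94 to -0.31). The levels of the S, G2 and mitosis genes differed between the sets of each group by more than between the groups.

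**Figure D5:**
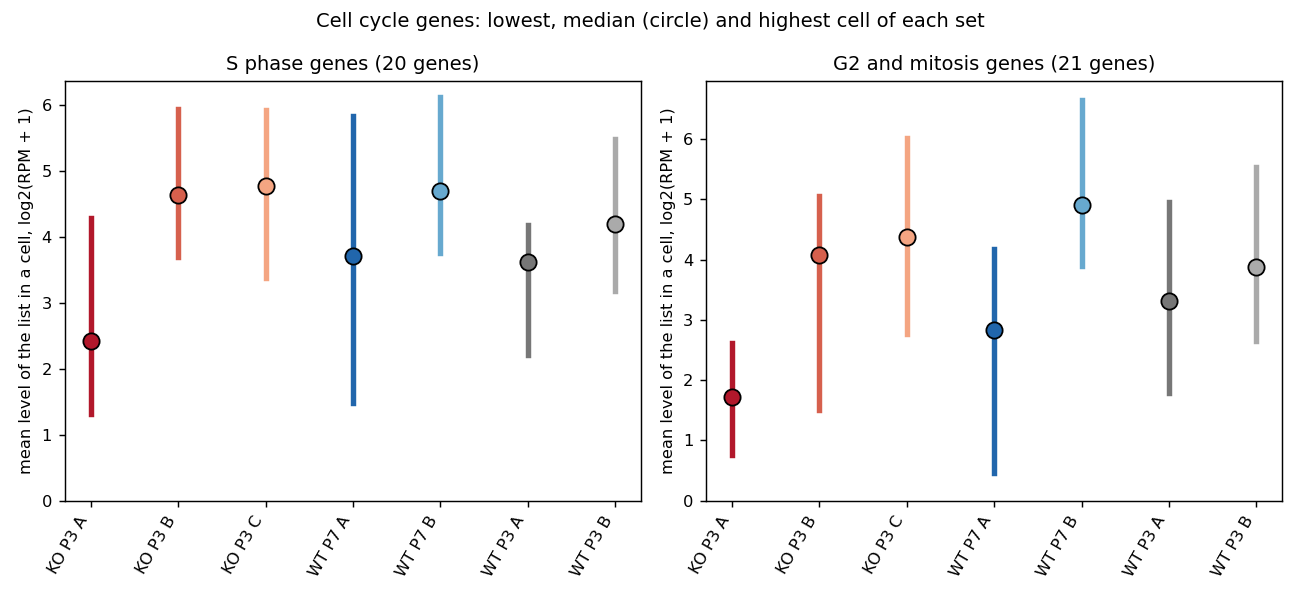
Mean level of the S phase genes (left, 20 genes) and of the G2 and mitosis genes (right, 21 genes) in a cell, in log2(RPM + 1); circles are the median cell of a set and lines run from its lowest to its highest cell. KO set A, with a median of 1.71 for G2 and mitosis, and P7 set A, with 2.84, lie below the other sets of their groups.

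Adhesion and surface genes completed the lists. Cd24a, a surface glycoprotein, was higher at 2.80, 2.73 and 2.56 against 1.53 and 1.23, and Itga6, an integrin subunit of stem cells, was lower at -0.83 (-1.70 to -0.10), or -0.44 without KO set A. Mmp9, a secreted protease, had 1.12 in KO set A and 4.40 and 3.54 in B and C, against 0.97 and 1.83, a difference of 1.62 that was 2.57 without KO set A. Of 19 measured members, 4 were higher and 1 was lower in all pairs, and the median was 0.09, or 0.28 without KO set A and -0.13 without P7 set A. Irf1, an interferon-responsive factor, was lower at 2.58, 4.07 and 3.44 against 4.76 and 4.51, while H2-T23, a nonclassical class I gene, was higher at 0.84 (0.06 to 1.66), or 0.50 without KO set C. The median of the 9 class I genes was 0.21, and -0.29 without KO set A.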

How the data were processed

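Single Id4-eGFP positive testis cells were captured on a Fluidigm C1 chip, with SMARTer cDNA, ERCC spike-ins and Nextera XT libraries, per the labels' protocols. STAR (2.3.0), HTSeq (0.6.1) and the build mm10 stand in the submitters' processing notes. For annotation, strand and multi-mapping, settings were not given in the sources used here. A table called TPM was deposited, but its values are RPM as the authors deposited them: in each cell they were whole multiples of 1 step, the same for every gene (99.99% of values on average, within 0.001 RPM). No count test was run on the recovered reads, since no replicate is named. ERCC rows and Rn45s were left out, which kept 19557 genes.

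A pseudocount of 1 was used. Counts of genes needed a mean level of at least 2 and a difference of at least 1 with the same sign in all 6 pairs. List members whose mean level was 0.5 or more counted as measured. Named genes were Rhox10, Id4, Zbtb16, Kit, Gfra1 and Fos, the 14 highest and 14 lowest differences with the same sign in all 6 pairs on both scales, without predicted genes, and, from each of 36 lists, at most 2 members at either end (mean level of 1 or more). The members and lists were chosen with earlier results of these data known. Older symbols were matched through RefSeq synonyms, and 594 of 604 list entries were found. Lists share members. No doublet caller was run. The summary steps were tested on simulated data. Alternatives varied the pseudocount, scale, filter, averaging, depth (thinning to 100000 reads on genes), threshold and sets. Python 3.11.15 with pandas 2.3.3 and numpy 2.4.6 was used.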

Additional observations from a re-analysis of the deposited data

How the results depend on the processing

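The counts of 216 higher and 309 lower genes moved by over 1.5 times under several settings. With a pseudocount of 10 they were 14 and 32, with a mean level of at least 4 they were 30 and 91, and with a threshold of 0.58 they were 424 and 822. Without a filter on the level 460 genes were higher. Taking mean RPM before the logarithm gave 547 lower genes, and rescaling gave 181. Leaving out 1 set at a time gave 171 to 412 higher and 178 to 524 lower genes: without KO set A 339 and 178, without KO set C 323 and 524, without P7 set A 184 and 507, and without P7 set B 412 and 454. Added after seeing the data, rescaling without KO set A gave 383 and 129, and rescaled KO sets B and C against P7 set B gave 289 and 178. Wherever a set was left out, only the remaining pairs had to be on the same side, a looser condition than all 6. The cause of the changes in these counts was not tested. Of the differences of named genes under all alternatives, 73 had another sign. For 72 of these the 6 pairs had not been on the same side to begin with. The other was Suv39h2 (0.044 for rescaled KO sets B and C against P7 set B). List medians had another sign in 74 cases, for 22 lists. In 71 of these the pair medians lay on both sides of 0 to begin with, and the other 3 were -0.16 for lamins, annexins and S100 genes and -0.81 for Sertoli markers at a mean level of at least 4, and -0.00999 for leukocyte markers with no filter. No paired analysis was possible because the set letters are unexplained and no result comes from a test. Depth limits low genes, where 1 read can decide whether a cell is above 1 RPM.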
